A study of Mus musculus with 4 samples.

Results

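Irx3 and Irx5 encode homeodomain transcription factors of the Iroquois family and lie next to each other on mouse chromosome 8, with the start of Fto on one side and Irx6 on the other. All Meis peaks with a summit between 93.8 and 95.4 Mb of chromosome 8 (mm9) were taken as the peaks of this locus. This rule used position and no measured value, but the choice was made with earlier results of these data known. The window held 62 of the 21338 forelimb (FL) peaks and 48 of the 16987 hindlimb (HL) peaks. Meis binding was measured by ChIP-seq in limb buds of wild-type C57BL/6 mouse embryos at E10.5 (36 somites). About 500 FL buds and 500 HL buds were pooled, and Meis1 and Meis2 were precipitated together, with 2 antibodies in a single reaction. Every Meis1 isoform is bound by at least 1 of them, but of Meis2 only the a and c isoforms are stated to be. For either limb there was 1 ChIP library with 1 matching input library, sequenced as single-end 50 bp reads without a replicate, so no difference between limbs could be tested. The raw read totals stated with the study are close for both ChIP libraries, but the FL input has fewer reads than the HL input. The stated share of uniquely mapped reads is higher in FL for the ChIP and higher in HL for the input. These values were not used here, and the peak lists give no read count per peak. The lists are the looser of those called, with p up to 0.022 in FL and 0.0217 in HL.

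Irx3 and Irx5 act together in the early limb bud, where they are needed for proximal and anterior skeletal elements of the hindlimb. Meis1 and Meis2 are homeodomain proteins of the same TALE class and mark the proximal part of the limb bud, which forms the upper limb segment. Fto encodes an RNA demethylase, and its long introns are known to hold regulatory elements that contact the Irx3 promoter over a great distance. The questions put to these peak lists were where Meis peaks lie relative to the Irx3 and Irx5 starts, how high they are, and which of them are found in both limbs.

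The Irx3 start is at position 94325553 of mm9 and the gene is read towards Fto, whose start is 488 kb away. Irx5 starts 556 kb on the other side and is read away from Irx3, and Irx6 starts 316 kb beyond Irx5. These distances are the same in the GRCm38 annotation to within 7 bp, so gene features were assigned to peaks by distance from the Irx3 start. For orientation, the 250 bases before the Irx3 start (RefSeq, GRCm38.p6, chr8:91801655-91801904, minus strand) are shown, because this is the promoter that the surrounding peaks are measured from:

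Irx3 promoter: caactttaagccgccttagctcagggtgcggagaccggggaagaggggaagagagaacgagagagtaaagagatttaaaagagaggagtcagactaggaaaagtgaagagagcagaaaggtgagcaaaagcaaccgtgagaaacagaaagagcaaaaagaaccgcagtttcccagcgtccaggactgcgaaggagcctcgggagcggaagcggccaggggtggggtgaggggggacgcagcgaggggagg

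Neither the Meis hexamer TGACAG nor the Hox-Pbx octamers TGATTTAT and TGATTGAT occurred in it on either strand, so nothing is in capitals. Among all 32851 promoter windows of the same 250 bases, 15.9% held the hexamer, 0.837% held TGATTTAT and 0.670% held TGATTGAT. The absence says only that these letters are not in this window. No FL or HL peak lay over these bases.

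The fold values given here are the ChIP signal over the input of the same limb at the summit, and p and q are those of the peak caller for that summit. Of the 62 FL peaks, 11 (17.7%, 95% Wilson interval 10.2 to 29.0%) had a q of at most 0.05, beside 17.4% of all FL peaks. In HL 7 of 48 (14.6%, 7.25 to 27.2%) did, beside 10.1% of all HL peaks. The intervals cover counting error only, and both include the share of the whole list, so by this measure the locus was like the rest of each list. At a p of at most 0.0005 the locus held 27 FL peaks (43.5%, 31.9 to 55.9%), beside 31.7% of the FL list, and 22 HL peaks (45.8%, 32.6 to 59.7%), beside 37.0% of the HL list. The median fold was 2.87 in FL, ranging from 1.90 to 6.70, and 2.79 in HL, ranging from 1.96 to 8.32. Over the whole lists the median fold was 2.78 in both limbs. The locus medians were thus at or slightly above those of the lists. A q of 1 was given to 39 FL peaks (62.9%, beside 68.8% of the FL list) and 33 HL peaks (68.8%, beside 78.8% of the HL list). The median width was 192 bp in FL and 144 bp in HL, against 166 and 132 bp over the lists.

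The locus held many peaks for its length. There were 38.8 FL peaks per Mb in the window and 8.32 per Mb over the rest of the genome, a ratio of 4.66 (95% Poisson interval of the count, 3.57 to 5.97). In HL the values were 30 and 6.63 per Mb, a ratio of 4.53 (3.34 to 6.00). Against the rest of chromosome 8 alone, the ratios were 3.72 in FL and 3.74 in HL. When the chromosomes were divided into 1602 side-by-side windows of 1.6 Mb, the median was 10 FL peaks and 6 HL peaks per window, and 19 windows (1.19%) held at least 62 FL peaks and 39 (2.43%) at least 48 HL peaks. The locus was therefore among the richest stretches of both lists in peaks. Counting only peaks with a q of at most 0.05, the density ratios were 4.74 in FL and 6.53 in HL, so the peaks of low q were denser here too. Among the 2000 highest folds of each list were 7 FL peaks of the locus (11.3%, beside 9.38% of all FL peaks) and 10 HL peaks (20.8%, beside 12.5% of all HL peaks, ties included). The FL list is longer than the HL list by a factor of 1.26, and in the window the factor was 1.29.

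**Figure D1:**
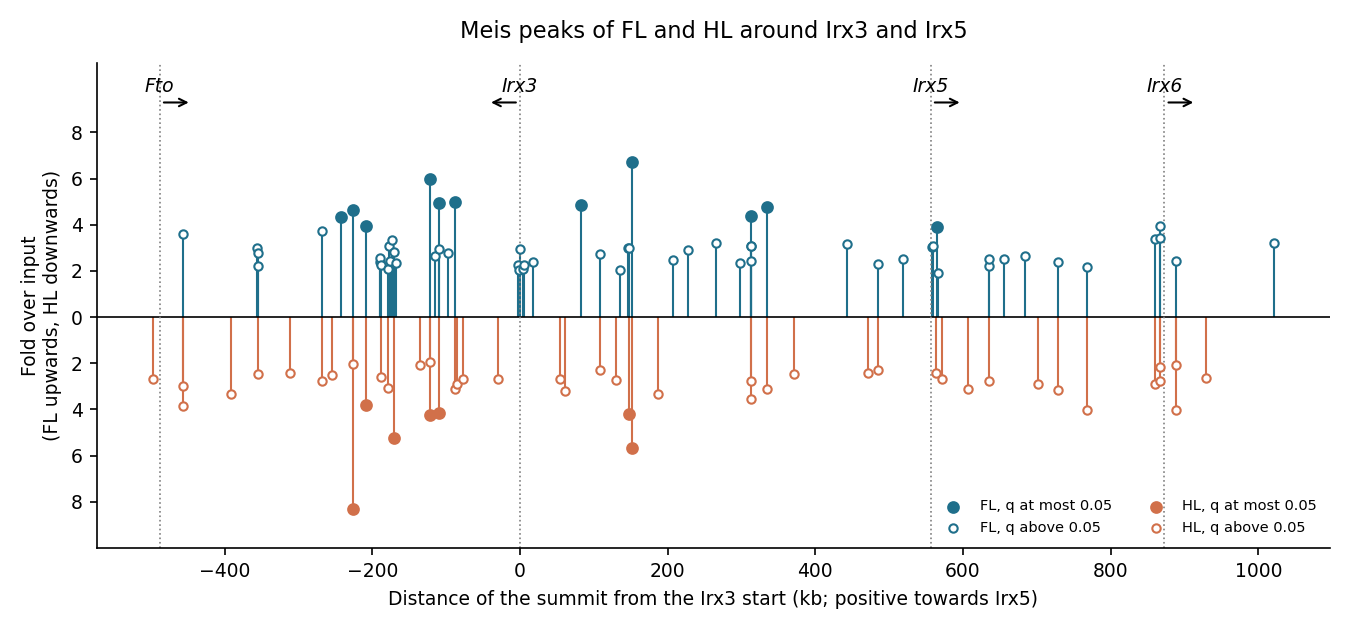
Each stem is a Meis peak, placed by the distance of its summit from the Irx3 start (kb, positive towards Irx5), with its fold over input drawn upwards for the 62 FL peaks and downwards for the 48 HL peaks. Filled heads have a q of at most 0.05 (11 in FL, 7 in HL), dotted lines mark gene starts with arrows in the direction of transcription, and most filled heads lie between the last part of Fto and the stretch 335 kb on the other side of Irx3.

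**Figure D2:**
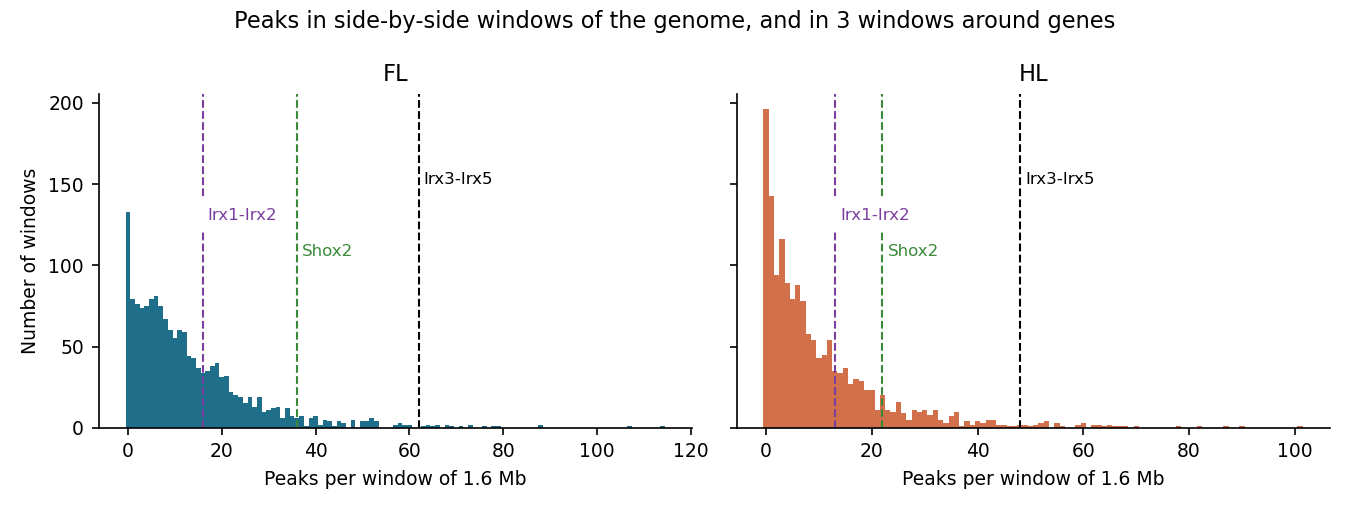
Bars count the 1602 windows of 1.6 Mb by the number of FL peaks (left) or HL peaks (right) they hold, and dashed lines mark windows of the same length around Irx3 and Irx5 (62 and 48 peaks), Irx1 and Irx2 (16 and 13) and Shox2 (36 and 22). The Irx3 and Irx5 window lies in the far right tail in both limbs.

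Peaks were spread over the gene intervals unevenly. Between the Fto and Irx3 starts, 30.5% of the window's length, there were 26 FL peaks (41.9%, 30.5 to 54.3%) and 21 HL peaks (43.8%, 30.7 to 57.7%). The interval between Irx3 and Irx5, 34.8% of the length, held 21 FL peaks (33.9%, 23.3 to 46.3%) and 13 HL peaks (27.1%, 16.6 to 41.0%). Between Irx5 and Irx6, 19.8% of the length, lay 13 FL peaks (21.0%, 12.7 to 32.6%) and 10 HL peaks (20.8%, 11.7 to 34.3%). In each limb the share of peaks from Fto to Irx3 was above the share of the length, with the length at the lower bound of the interval or just below it, while the next intervals held peaks about in proportion to their length. Beyond Irx6, in the last 202 kb of the window, only 2 FL and 3 HL peaks were found, or 0.991 and 1.49 per 100 kb against 5.33 and 4.30 per 100 kb between Fto and Irx3. The peaks with a q of at most 0.05 followed the same order, with 6 of the 11 in FL and 5 of the 7 in HL between Fto and Irx3, 4 and 2 between Irx3 and Irx5, and 1 and 0 beyond Irx5.

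**Figure D3:**
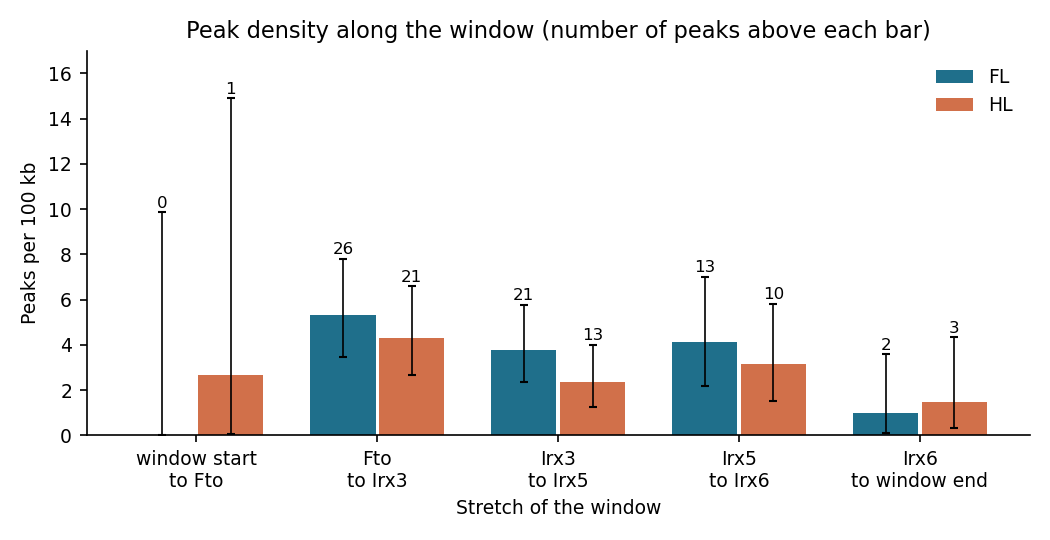
Bars give peaks per 100 kb of FL and HL in the stretches between gene starts, with the number of peaks above each bar and 95% Poisson intervals of that number as error bars. Density is 5.33 (FL) and 4.30 (HL) per 100 kb from Fto to Irx3 and 0.991 and 1.49 beyond Irx6.

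Fto itself, 355 kb long, held 17 FL peaks and 14 HL peaks, and most of these were in its last intron. Intron 8 is 143 kb long and had 13 FL and 9 HL peaks (9.07 and 6.28 per 100 kb), whereas intron 1, 88.2 kb long, had 1 FL and 2 HL peaks. Intron 4 had 3 FL peaks and 1 HL peak in 26.5 kb. By distance, 1 HL peak fell on the coding part of exon 3 (chr8:93933490-93933627, fold 3.34, q of 1), and it had no FL counterpart. Introns 2, 3, 5 and 6 had no peak in either list.

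Of the peaks in intron 8, the pair at chr8:94099464-94099682 in FL and chr8:94099394-94099718 in HL stood out, 226 kb from the Irx3 start. Its HL fold of 8.32 (q = 8.10e-13) was the highest HL value of the locus and ranked 125 in the HL list. The FL fold was 4.65 (q = 3.51e-04), a log2 ratio of FL to HL of -0.84, with the summits 2 bp apart. This was the one pair with a q of at most 0.05 in both limbs in which HL was the higher. A neighbouring pair, 209 kb from Irx3 at chr8:94116811-94117198 in FL and chr8:94116792-94117197 in HL, had nearly equal folds of 3.95 (q = 8.80e-04) and 3.82 (q = 0.0156). HL was again higher at chr8:94154216-94154468, 171 kb from Irx3, where the HL fold was 5.24 (q = 5.74e-05) and that of the overlapping FL peak 2.84 (q of 1). In the opposite direction, the FL peak at chr8:94082478-94082616, 243 kb from Irx3, reached a fold of 4.33 (q = 0.00530) with nothing called over it in HL. The high peaks of the intron thus included ones that were higher in HL, one about equal and one listed for FL only, each from 1 library per limb.

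The same intron held the longest run of neighbouring FL peaks. From 190 to 168 kb from the Irx3 start, 9 FL peaks lay within 21.8 kb, none more than 10 kb from the next. Their folds ran from 2.08 to 3.34, beside a median of 2.78 over the FL list. Of the 9, 0 had a q of at most 0.05, beside 17.4% of all FL peaks. An HL peak overlapped 3 of them, beside 22.6% of all FL peaks. HL had 3 peaks over the same stretch, among them the one with a fold of 5.24. With only 9 peaks, these counts do not set the run apart from the FL list. Runs were defined as at least 3 peaks with summits at most 10 kb apart, a definition chosen after the values were seen, and the window held 8 such runs in FL and 2 in HL. The number of runs over the lists is not given here, and the part of the greater peak density in these counts was not tested.

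Between the end of Fto and the Irx3 start, 133 kb, there were 9 FL and 7 HL peaks, with the highest folds in the part nearer Fto. The FL peak at chr8:94203322-94203817, 122 kb from Irx3 in intergenic DNA, had 2 summits and a fold of 5.99 (q = 1.73e-06), the second highest of the locus in FL. HL had a fold of 4.25 (q = 0.0209) there, with summits 4 bp apart. At 109 kb from Irx3, the pair chr8:94216160-94216400 in FL and chr8:94215876-94216368 in HL had folds of 4.93 (q = 9.18e-06) and 4.14 (q = 0.00735). The HL peak also took in a second, lower FL peak next to it, with a fold of 2.96. Closest to Irx3 among these was the FL peak at chr8:94237724-94238125, 87.6 kb away and within the annotated lncRNA Gm36325, with an FL fold of 4.97 (q = 4.23e-05) and an HL fold of 3.10 (q = 0.0692). At these 3 places FL was the higher, by log2 ratios of 0.50, 0.25 and 0.68. No peak of either limb between them and the Irx3 start had a q of at most 0.05.

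Around the Irx3 start the peaks were low and listed for FL only. FL had 5 peaks within 10 kb of the start and 6 within 25 kb, and HL had 0 within 25 kb. The nearest FL summit was 720 bp into the gene, in intron 1 (chr8:94324739-94324893, fold 2.94, −log10 p of 3.39, q of 1). Further into the gene were FL peaks with folds of 2.06, on coding exon 2, and 2.26, in intron 3, and before the start were FL peaks at 3.88, 4.71 and 17.4 kb, within the annotated lncRNA Irx3os, with folds of 2.1, 2.26 and 2.37. None of the 6 had a q of at most 0.05, beside 17.4% of all FL peaks, and 1 had a p of at most 0.0005. Of the FL peaks with a q above 0.05, 13.2% overlap an HL peak over the whole list and 37.3% (19 of 51) in this window. The 0 of 6 is thus close to what the list gives and lower than the share of the window. Whether HL differs from FL here was not tested. The HL summits on either side of the start, at 29.9 kb (chr8:94295577-94295676) and 54.8 kb (chr8:94380275-94380460), both had a fold of 2.68 and a q of 1. The nearest peak with a q of at most 0.05 was 83.1 kb from the Irx3 start in FL and 109 kb in HL.

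**Figure D4:**
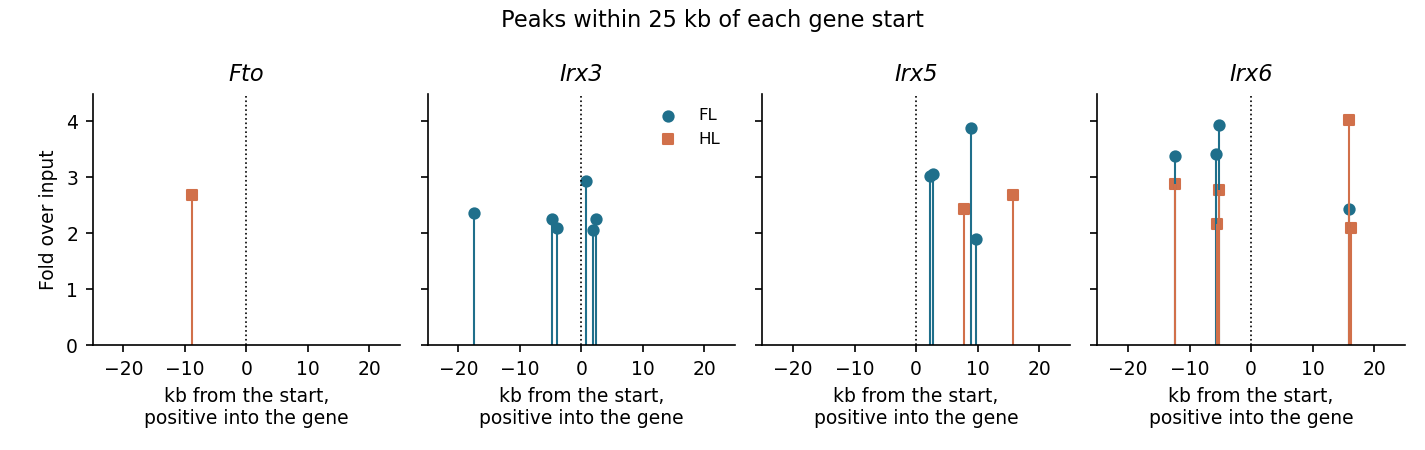
Peaks within 25 kb of the Fto, Irx3, Irx5 and Irx6 starts are placed by distance from the start (kb, positive into the gene) and fold over input, with circles for FL and squares for HL. FL has 6 peaks around Irx3 and 4 around Irx5, where HL has 0 and 2, and at Irx6 each of the 4 FL peaks overlaps an HL peak, with a further HL peak beside them.

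The interval between Irx3 and Irx5 is a gene desert apart from annotated lncRNAs. The 278 kb nearer Irx3 held 12 FL and 7 HL peaks and the 278 kb nearer Irx5 held 9 and 6. It was here that the highest FL peak of the locus lay, at chr8:94476868-94477159 in intergenic DNA, 152 kb from Irx3 and 405 kb from Irx5. Its fold was 6.70 (q = 5.51e-08), rank 649 in the FL list, and the overlapping HL peak at chr8:94476783-94477129 had a fold of 5.67 (q = 1.99e-07), the second highest HL value, with summits 70 bp apart. The limbs were close at this site, with a log2 ratio of 0.24. Nearer to Irx3, at 147 kb, a 774 bp FL peak with 2 summits (chr8:94472175-94472948, fold 3.0, q of 1) overlapped an HL peak with a fold of 4.19 (chr8:94472525-94472863, q = 0.0165), so here HL was the higher.

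The desert's other FL peaks with a q of at most 0.05 were listed for FL only or were higher in FL. At chr8:94408473-94408839, 83.1 kb from Irx3, the FL fold was 4.87 (q = 0.00135) and no HL peak overlapped. The FL peak at chr8:94637726-94637949, 312 kb from Irx3, reached 4.37 (q = 0.00199), again without HL overlap, but it was the first of 4 FL peaks within 1.19 kb, of which 2 overlapped HL peaks with folds of 3.57 and 2.79. At chr8:94660490-94660665, 335 kb from Irx3 and 221 kb from Irx5, the FL fold was 4.75 (q = 0.00116) and the HL fold 3.12 (q = 0.778), with both summits at the same base. Of the 13 HL peaks of the desert, 7 overlapped an FL peak, beside 29.0% of the HL list, and 6 did not, with folds from 2.42 to 3.33 and q above 0.05, and at the HL peak with a fold of 3.57 the FL fold was the lower (3.08). In the stretch of 221 kb from the last of these FL sites to Irx5, neither limb had a peak with a q of at most 0.05.

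Within 10 kb of the start, 1 of 4 FL peaks at Irx5 and 0 of 5 at Irx3 had a q of at most 0.05. Over the whole FL list 17.4% of peaks did, and with so few peaks a difference between the genes was not tested. FL had 4 peaks within 10 kb, all downstream of the start, and HL had 1. The nearest FL summit was 2.23 kb into the gene, in intron 2 (chr8:94883823-94884101, fold 3.02, q of 1), and the next was at 2.71 kb on the coding part of exon 3, with a fold of 3.06. The highest was at chr8:94890496-94890675, 8.90 kb downstream of the start and beyond the gene's end, where the fold was 3.89 (q = 0.00514) in FL and no call overlapped in HL. In HL the nearest summit was at 7.71 kb (chr8:94889183-94889513, fold 2.44, q of 1), and the nearest with a q of at most 0.05 was 405 kb away. Taking both genes, 9 of the 62 FL peaks (14.5%) and 1 of the 48 HL peaks (2.08%) were within 10 kb of the Irx3 or Irx5 start, a distance that takes in 2.50% of the window's length. The median distance to the nearer of the starts was 172 kb in FL and 182 kb in HL. The FL share near the starts was thus above the share of the length and the HL share close to it. The share of all peaks of the lists this near to a gene start is not given here, so neither share was set against the lists.

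Irx6, the third gene of the cluster, had 4 FL and 6 HL peaks within 100 kb of its start, and Fto had 1 and 4. None of them had a q of at most 0.05, beside 17.4% of all FL peaks and 10.1% of all HL peaks. With so few peaks, this does not set these genes apart from the lists. The nearest peaks to Irx6 were found in both limbs, 5.24 kb before the start in FL (chr8:95192842-95193087, fold 3.94, q = 0.105) and 5.22 kb before it in HL (chr8:95192820-95193057, fold 2.78, q of 1). At 16 kb downstream of the Irx6 start the order was the opposite, with an HL fold of 4.03 (q = 0.0806) and an FL fold of 2.44. Near the Fto start the FL list had its first peak of the window 31.9 kb into the gene (chr8:93869278-93869424, fold 3.59, q = 0.499), over an HL peak with a fold of 3.85, and the nearest HL peak was 8.80 kb before the start (chr8:93828577-93828682, fold 2.68, q of 1). In FL the lowest and highest summits inside the window were at 93.87 Mb (fold 3.59) and 95.35 Mb (3.23), and the next ones outside it were at 93.70 Mb (2.64) and 95.48 Mb (3.06). In HL they were at 93.83 Mb (2.68) and 95.25 Mb (2.66) inside, and at 93.72 Mb (2.85) and 95.42 Mb (2.66) outside, so no peak next to either edge had a fold above 3.59.

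Peaks of the locus were found in both limbs more often than peaks in general. Of the FL peaks, 26 of 62 (41.9%, 30.5 to 54.3%) shared at least 1 bp with an HL peak, beside 22.6% of all FL peaks. Of the HL peaks, 25 of 48 (52.1%, 38.3 to 65.5%) overlapped an FL peak, beside 29.0% of all HL peaks. Both intervals lay above the share of the whole list. When at least 50% of both peaks had to overlap, the shares were 24.2% in FL (15.2 to 36.2%, beside 14.8% of the list) and 31.2% in HL (19.9 to 45.3%, beside 18.6%), smaller but again above the lists. With a q above 0.05, the FL share was 19 of 51 (37.3%, 25.3 to 51%) against 13.2% over the list, and the HL share was 18 of 41 (43.9%, 29.9 to 59.0%) against 22.2%. Among peaks with a q of at most 0.05, 7 of 11 FL peaks (63.6%, 35.4 to 84.8%) and 7 of 7 HL peaks overlapped, beside 67.0% and 89.3% over the lists. At these high peaks the locus was close to the lists, and the 4 FL peaks without an HL partner were those at 243 and 83.1 kb from Irx3, at 312 kb from Irx3 and at 8.90 kb from Irx5. The locus also had the greater density of peaks given above, whose part in these shares was not tested.

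The 26 overlapping pairs had a median log2 ratio of FL to HL fold of 0.03, with quartiles of -0.46 and 0.25. Over all 4813 pairs the median was 0.17, with quartiles of -0.18 and 0.54. FL was the higher in 14 of the 26 pairs (53.8%) and in 62.1% of all pairs. A fold more than 1.5 times as high was seen in FL for 3 pairs (11.5%, beside 22.2% of all pairs) and in HL for 4 (15.4%, beside 7.65%). The pairs of the locus were thus split about evenly between the limbs, whereas those of the lists leaned to FL, a difference that was not tested. Among the 5 pairs with a q of at most 0.05 in both limbs, the median log2 ratio was 0.24, beside 0.16 over the 1200 such pairs of the lists. Along the locus the medians were 0.02 in 12 pairs between Fto and Irx3, 0.14 in 7 pairs between Irx3 and Irx5 and -0.12 in 7 pairs beyond Irx5, with values from -0.88 to 0.68, from -0.48 to 0.60 and from -0.89 to 0.66, so that pairs with the higher fold in FL and in HL occurred in every interval. The nearest summits of a pair were a median of 23.5 bp apart, at most 100 bp in 23 of 26 pairs (88.5%) and at most 5 bp in 5 (19.2%), beside 91.8% and 12.3% over all pairs. Close summits are partly built in, because pairs of narrow peaks were chosen for their overlap.

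**Figure D5:**
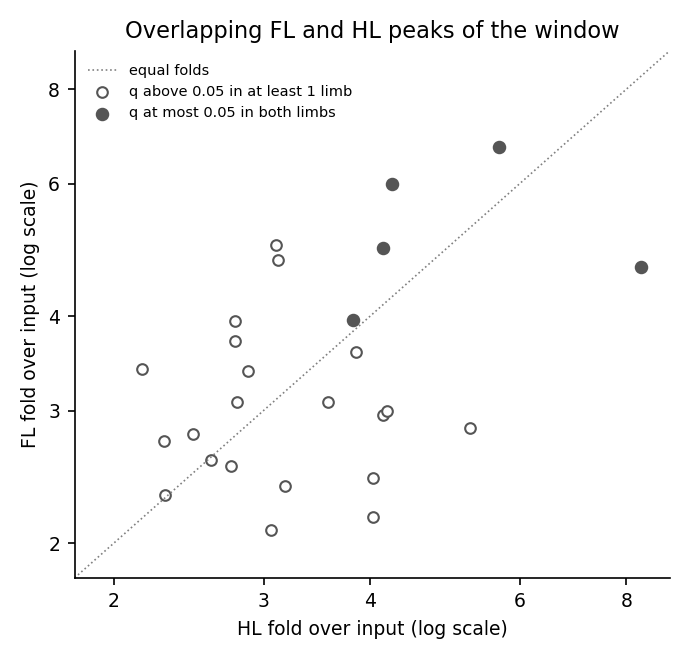
Each point is an overlapping pair of the window, with the HL fold on the horizontal and the FL fold on the vertical axis (both over input, log scale) and a dotted line at equal folds. Filled points are the 5 pairs with a q of at most 0.05 in both limbs, of which 4 lie above the line and 1, with an HL fold of 8.32 and an FL fold of 4.65, below it.

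Some of these sites are also listed as bound by other limb factors. Of the regions listed as common to FL Meis and Hoxc10 binding, 5 lay in the window, at 209, 122, 109, 147 and 867 kb from the Irx3 start. Each of them overlapped an FL peak, which the list itself requires, and each also overlapped an HL peak, with HL folds of 3.82, 4.25, 4.14, 4.19 and 2.78. Over the whole lists, 889 FL and 775 HL peaks overlapped the 884 regions of this kind, so HL overlaps are not particular to the locus. The 5 regions took in 8.06% of the FL peaks of the locus (3.49 to 17.5%), beside 4.17% of the FL list, and 10.4% of its HL peaks (4.53 to 22.2%), beside 4.56% of the HL list. The first 4 are also among those shared by Tbx5 and Hoxc10, which took in 6.45% of the FL peaks (2.54 to 15.4%), beside 2.58% of the list, and 8.33% of the HL peaks (3.29 to 19.6%), beside 2.61%. With so few sites the intervals are wide. The 5 sites include neither the highest FL site, at 152 kb, nor the highest HL site, at 226 kb.

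The second cluster of Iroquois genes, on chromosome 13, holds Irx1, Irx2 and Irx4, and the stretch around Irx1 and Irx2 had fewer Meis peaks. A window of the same length centred between the Irx1 and Irx2 starts held 16 FL and 13 HL peaks, against 62 and 48 around Irx3 and Irx5. There, 7 FL peaks (43.8%) and 2 HL peaks (15.4%) passed the q limit of 0.05, against 11 (17.7%) and 7 (14.6%) here. The FL peaks of that window were fewer but higher, with a median fold of 3.56 and a highest fold of 8.09 against 2.87 and 6.70, while in HL the median was 2.78 and the highest 4.83 against 2.79 and 8.32. The overlap between limbs was similar, with 7 of 16 FL peaks (43.8%, 23.1 to 66.8%) and 7 of 13 HL peaks (53.8%, 29.1 to 76.8%). Within 100 kb of the start, Irx1 had 0 peaks in both limbs and Irx2 had 3 in FL and 1 in HL, whereas Irx3 had 9 and 6, Irx5 9 and 6 and Irx6 4 and 6. The Irx4 start could not be worked out in mm9 and this gene was not analysed here. Of the FL peaks within 100 kb, 2 of 9 at Irx3 and 1 of 9 at Irx5 had a low q (at most 0.05), beside 17.4% of all FL peaks. Irx1, Irx2 and Irx6, with 0, 3 and 4 FL peaks, had none of low q. In HL none of these genes had one, beside 10.1% of all HL peaks. With so few peaks per gene, a difference between members of the family was not tested.

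Most other genes of the proximal limb list, transcription factors active in the limb bud, reached higher folds near their starts. This is a description of the genes reported, since the list was chosen with earlier results known. The highest FL fold within 100 kb was 4.97 for Irx3 and 3.89 for Irx5, and it was 8.54 for Meis1, 8.50 for Meis2, 8.61 for Shox2, 8.46 for Alx4, 7.12 for Tbx15 and 4.65 for Alx1. In HL it was 3.21 for Irx3 and 3.12 for Irx5, against 6.02 for Meis1, 6.36 for Meis2, 5.58 for Shox2, 8.08 for Alx4, 5.62 for Tbx15 and 2.89 for Alx1. Irx3, Irx5 and Alx1 thus had the lowest of these values in both limbs. The limit of 100 kb leaves out the highest peaks of the locus. These had folds of 6.70 in FL, 152 kb from Irx3, and 8.32 in HL, 226 kb from it. In the Shox2 window of 1.6 Mb the highest folds were 9.62 (FL) and 9.33 (HL). For the other genes, peaks beyond 100 kb are not given here. Within 100 kb, the highest peaks of Irx3 were 87.6 kb (FL) and 61.2 kb (HL) from its start, and those of Irx5 8.90 and 50.3 kb. The same distances were 46.1 and 86 kb for Shox2, 78.6 kb in both limbs for Tbx15, 57.6 and 81.3 kb for Alx1, 38.9 and 49.5 kb for Meis1, 17.1 kb in both limbs for Alx4, and 0.253 and 0.230 kb for Meis2. The Shox2 window of 1.6 Mb held 36 FL and 22 HL peaks, fewer than around Irx3 and Irx5, but with 17 FL peaks (47.2%) of low q against 11 (17.7%).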

How the data were processed

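Per the submitters' processing notes, reads were handled with CASAVA 1.8.2, cutadapt 1.3, BWA and SAMtools on mm9, and peaks were called with MACS2. By the study's methods this was done for each limb apart, against its own input. The deposited lists are those of the looser p limit, used by the authors to find shared peaks, and a p of at most 0.0005 is the stricter limit of the methods, given here beside it. The authors deposited for each summit the fold over input (a ratio), the −log10 p and −log10 q, and a score, 10 times −log10 p, which was not used. Rows with equal start and end were taken as 1 peak with the highest fold and lowest p and q (68 FL and 50 HL summits gave 62 and 48 peaks). Overlap meant at least 1 bp, and where several HL peaks overlapped an FL peak, the one with the highest fold was its partner. Gene starts came from distances between peaks and genes listed with the study, where all distances to a gene gave 1 position within 2 bp. For Irx2 and Alx1 only 1 distance was found, so those starts could not be checked in this way. Positions are 1-based. Coding parts, introns and lncRNAs are RefSeq's for GRCm38.p6, assigned by distance from the Irx3 start, and no coordinate was converted. The mm9 genome was not used here, so no peak sequence is given. Of Irx3, Irx5, Fto and Irx6, the promoter table held Irx3 and Fto.

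Shares have 95% Wilson intervals and densities 95% Poisson intervals, and there was no test, with 1 library per limb. Members and lists were chosen with earlier results of these data known, and some genes of the proximal limb list are not reported here. Named peaks were the 5 highest of each limb, overlapping peaks that passed q of 0.05 in FL and in HL, peaks nearest to each gene start, peaks with q at most 0.05 in 1 limb without a partner, and those at the window's edges; others named were chosen after their values were seen. Alternatives were the methods' p limit of 0.0005, a q limit of 0.05, all summits, other window lengths, stricter overlap, equal list lengths, other ratios and another background for density. Python 3.11.15, numpy 2.4.6, pandas 2.3.3, scipy 1.17.1, matplotlib 3.10.9 and bedtools 2.31.1 were used, and the overlap and merging steps were tested on simulated data.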

Additional observations from a re-analysis of the deposited data

How the results depend on the processing

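Of 37 values under other settings, 25 lay within 1.5 times the count, within the interval of the share or density, or within 1 SD of the pairs' median log2 ratio, and 12 did not. Counts fell from 62 FL and 48 HL peaks to 27 and 22 at p of at most 0.0005 and to 11 and 7 at q of at most 0.05, since fewer peaks are counted. The overlapping share rose to 63.6% (FL) and 100% (HL) for peaks with q of at most 0.05 and fell to 24.2% and 31.2% when at least 50% of both peaks had to overlap, beside 14.8% and 18.6% of the lists under that rule. The share between Fto and Irx3 was 54.5% (FL) and 71.4% (HL) at that q. Density relative to the rest was 6.39 in FL at p of at most 0.0005 and 6.53 in HL at q of at most 0.05. Where the construction of the alternative does not show it, the cause was not tested. The median log2 ratio changed sign under some settings, from 0.03 to -0.02 with the nearest summits and to -0.04 with −log10 p values, and was 0.25 at p of at most 0.0005 in both lists, so it has no stable direction. No paired analysis was possible because each limb has 1 ChIP library and the labels carry no replicate numbers. The single library per limb, unequal list lengths and the many peaks with a q of 1 limit every statement about a peak listed for 1 limb only.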

Other observations

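Several summits of the locus have exactly the same fold and p. In HL 14 of the 50 summits shared both values with another summit of the window, and 5 of them had a fold of 2.68 with a −log10 p of 2.96, a combination found at 730 of the 17810 summits of the whole HL list. In FL 13 of 68 did, and the most common combination, a fold of 2.37 with a −log10 p of 2.34, was found at 3 summits here and 421 of the 22906 in the FL list. The share of summits with shared values over the whole lists is not given here, so these counts do not set the locus apart. The HL summits on either side of the Irx3 start are among those with a fold of 2.68.

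The longest gaps between neighbouring summits inside the window were 132 kb in FL, beyond Irx6, and 125 kb in HL, inside the Irx3 to Irx5 desert, against median gaps of 11.7 and 21.7 kb in the window and 35.9 and 40.1 kb over the lists.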
